A study of Drosophila melanogaster with 2 samples.

Results

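A set of 8 nuclear genes that maintain the mitochondrial genome and its RNA in the fruit fly Drosophila melanogaster was examined for sites of CG30431, a zinc-finger protein of the ZAD family. They are PNPase, Lon, TFAM, mtTFB1, mtTFB2, mtSSB, PolrMT and bsf, 8 of the 13945 protein-coding genes annotated on the arms that the peak lists cover. The set was selected on its function and partly on measured values, since PNPase and Lon were picked because their promoters carry strong peaks. All 8 symbols were found in the annotation. The data are chromatin immunoprecipitation sequencing (ChIP-seq) of whole embryos aged 0 to 24 h, with males and females pooled, from a transgenic line that stably expresses CG30431 fused at its C-terminus to GFP. An anti-GFP antibody was used, and 2 biological replicates, separate samples of the same line, form the only group, so there is no untagged or untreated group to compare. Whole embryos mix all cell types and stages of that period, and a site present in few cells cannot be told apart from a weak site present in many.

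Mitochondria keep a small circular genome, and nearly all proteins that copy, package, transcribe and degrade it or its RNA are encoded in the nucleus. PolrMT is the mitochondrial RNA polymerase, and mtTFB2 is its transcription factor. The related mtTFB1 methylates ribosomal RNA of the small mitochondrial ribosomal subunit, as known for its mammalian counterpart. TFAM is a high-mobility-group protein that packages mitochondrial DNA, and mtSSB coats single-stranded DNA during its replication. Lon is a protease of the matrix that degrades TFAM among other substrates, PNPase is a polynucleotide phosphorylase that trims and degrades RNA from its 3' end, and bsf is the fly relative of mammalian LRPPRC, a protein that stabilises mitochondrial mRNA.

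Peaks were taken from a reproducible set of 3314, which was also the 3314 strongest entries of a list of 30000 called on both replicates pooled. Each peak has a deposited signal value, on a scale that the sources used here do not give, and positions are on dm6. Promoter here means a summit within 500 bp of an annotated transcription start. The reproducible set ends at a signal of 70.79, and the next pooled entry had 70.78. None of the 4 dm6 lists held an entry on the mitochondrial genome itself. Whether reads from it were kept before peak calling is not given in the sources used here, so nothing is read from this absence.

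The promoters of PNPase, Lon and mtSSB carried reproducible CG30431-GFP sites, and those of TFAM, mtTFB1, mtTFB2, PolrMT and bsf did not. That is 3 of 8 genes (37.5%), where 12.8% of all protein-coding genes had a reproducible summit at a start. As PNPase and Lon were chosen for their peaks, nothing about the group is read from this share. Counting the gene body and 2 kb on each side as well added no site, so the count was again 3 of 8, against 25.4% of all protein-coding genes. Each of the 3 genes had a single reproducible summit.

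The stretches below hold the 3 summits and are read 5' to 3' on the strand of the gene, with exons left out. They are not the windows in which motifs were searched. For PNPase the intron of 48 bp that holds the summit is shown (chr3R:31404605-31404652, minus strand), with the summit base in capitals. For Lon the whole 255 bp between its start and that of the divergent gene PIG-F is shown (chr3L:19612200-19612454, minus strand). For mtSSB the stretch runs from 150 bp before to 100 bp after the summit (chr3R:16205458-16205708, minus strand). In the last pair, capitals mark CACTG and the longer forms CACTGTGC and CACAGTGG, letters that were searched for in all summit windows. The summit is base 170 of the Lon stretch and base 151 of the mtSSB stretch.
PNPase intron: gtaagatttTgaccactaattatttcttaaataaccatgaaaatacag
Lon to PIG-F: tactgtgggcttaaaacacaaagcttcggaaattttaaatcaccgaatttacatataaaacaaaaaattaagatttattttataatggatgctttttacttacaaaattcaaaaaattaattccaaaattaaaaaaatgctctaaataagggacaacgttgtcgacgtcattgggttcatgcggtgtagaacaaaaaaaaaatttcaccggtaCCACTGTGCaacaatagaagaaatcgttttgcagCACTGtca
mtSSB upstream: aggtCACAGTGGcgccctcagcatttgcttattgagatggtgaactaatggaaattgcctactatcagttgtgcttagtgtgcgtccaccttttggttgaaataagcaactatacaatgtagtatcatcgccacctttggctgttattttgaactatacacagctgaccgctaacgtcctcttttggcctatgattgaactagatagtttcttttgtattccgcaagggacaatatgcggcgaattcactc

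PNPase had the strongest of these sites. Its peak (chr3R:31404497-31404818, 322 bp) had a signal value of 1120 in the pooled list, 622 in replicate 1 and 500.1 in replicate 2. It ranked 8 of 3314 in the reproducible set, 11 of 30000 in replicate 1 and 8 of 30000 in replicate 2. It was thus near the top of each list, and the summit lay at 31404643 in the pooled list and replicate 1 and 1 bp away in replicate 2. PNPase (FBgn0039846, chr3R:31401560-31405452, minus strand) has 3 annotated starts, and the site lies between the inner ones. The summit was 75 bp upstream of the start at 31404568 and 97 bp downstream of the start at 31404740. It falls in the intron shown above, which begins with gt and ends with ag as introns do. The start at 31405452 was 809 bp away. Gprk2, a kinase of G-protein-coupled receptors read in the opposite direction, starts 602 bp from the summit, outside the promoter window. The next reproducible summit was 20387 bp away, where the median distance to the nearest other summit over the whole set was 5727 bp.

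Lon followed with a pooled signal value of 774, and with 446 in replicate 1 and 325 in replicate 2. Its peak (chr3L:19612150-19612518, 369 bp) ranked 29 in the reproducible set, 28 in replicate 1 and 35 in replicate 2. The summit lay 86 bp upstream of the single start of Lon (FBgn0036892, chr3L:19607857-19612199, minus strand). In the replicates it was displaced by 3 and 14 bp, away from the gene. The same summit lay 170 bp upstream of the start of PIG-F, a gene of glycosylphosphatidylinositol anchor synthesis on the plus strand. The starts of Lon and PIG-F are 256 bp apart, and the pooled interval covers both, so the site cannot be given to Lon alone. Among all 1466 reproducible promoter summits, 562 (38.3%) had starts on both strands within 500 bp. The next reproducible summit was 21137 bp from that of Lon. Around Lon the pooled list had 4 weaker entries, each matched in a single replicate. Their signal values were 34.3 at 738 bp upstream, 28.8 and 24.0 within the gene at 1772 and 2805 bp past the start, and 23.7 at 1221 bp past the 3' end. All 4 were far below the 774 of the promoter site.

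The site at mtSSB was weaker and further from its start. The signal value was 204 in the pooled list, 130 in replicate 1 and 73.1 in replicate 2, and the ranks were 731, 599 and 997. All 3 lists placed it well below PNPase and Lon. The peak (chr3R:16205376-16205739, 364 bp) had its summit 308 bp upstream of the start of mtSSB (FBgn0010438, chr3R:16204194-16205250, minus strand), with summits within 1 bp of each other in the lists. No start of another gene lay within 2 kb of this summit. The nearest was that of CG31287, at 2187 bp. Another reproducible summit lay 3579 bp away.

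**Figure D1:**
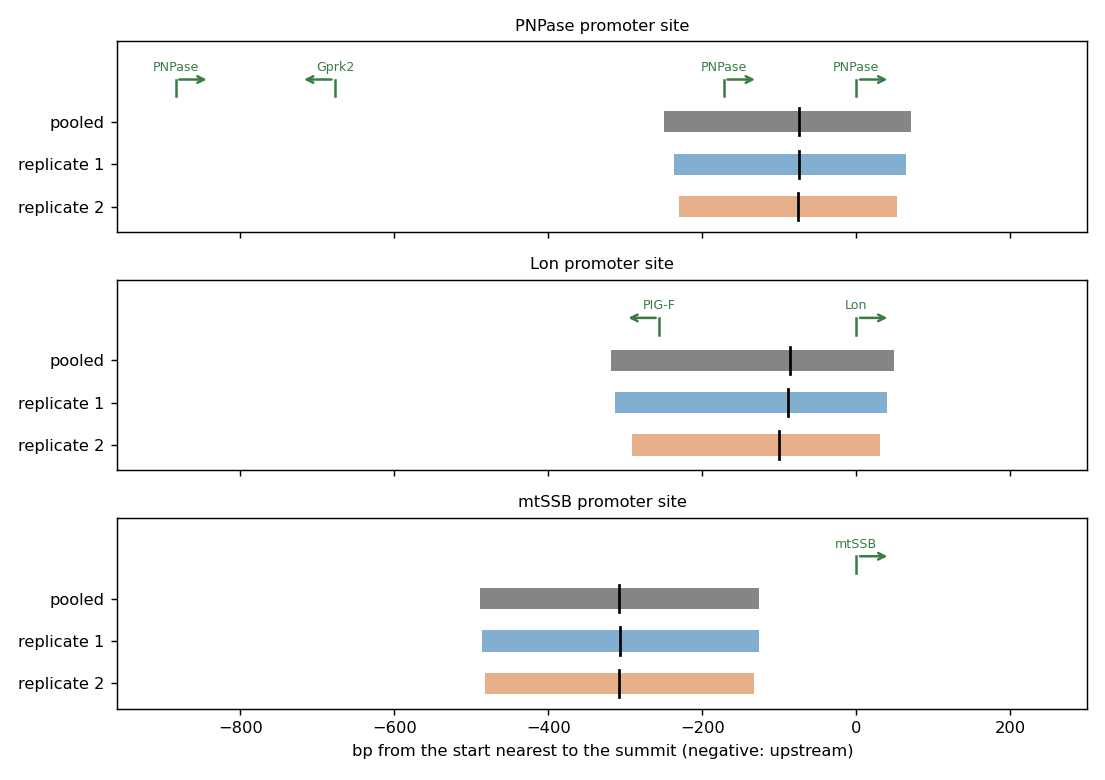
Peak intervals (bars) and summits (black ticks) at the promoters of PNPase, Lon and mtSSB in the pooled list and each replicate, by distance in bp from the start nearest to the summit, with starts and their direction as green arrows. Intervals and summits nearly coincide in the 3 lists, with pooled summits 75 bp upstream for PNPase, 86 bp for Lon and 308 bp for mtSSB.

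Set against other reproducible promoter sites, PNPase and Lon lay at usual distances. The 1466 promoter summits centred on -117 bp relative to the nearest start (quartiles -221 and -44.2 bp, minus meaning upstream), and 82.7% of them lay upstream. Summits further from a start than that of PNPase made up 73.9%, and further than that of Lon 69.2%. For mtSSB the share was 18.3%, which places it among the more distant promoter sites. By pooled signal the 3 sites ranked 7, 20 and 427 among the promoter summits. The median of the strongest promoter signal over the 1784 protein-coding genes that had one was 143, with an upper quartile of 232. The values of PNPase and Lon were far above that quartile, as follows from their being picked for strong peaks. That of mtSSB lay between the median and the quartile.

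The replicate values lay closest at PNPase and furthest apart at mtSSB. Replicate 1 had the higher value at all 3 sites, by a ratio of 1.24 at PNPase, 1.37 at Lon and 1.78 at mtSSB. Over the 3267 reproducible peaks with a value in both replicates the median ratio was 1.34, with quartiles of 1.13 and 1.63. PNPase and Lon fell inside these quartiles and mtSSB above the upper one, 0.41 log2 units from the median. Read depth per replicate is unknown, and its part in this ratio was not tested. The deposited −log10 q-value was 3.57 for all 3 sites in the pooled list, the highest value that list holds, so it does not separate them.

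By pooled signal among promoter peaks, directly above PNPase stood CG1888 with a pooled signal of 1308 (720 and 590.3 in the replicates), and directly below it Tcs5 with 1056 (622 and 437). Directly above Lon stood CG5611 with 787 (445 and 338), and below it asRNA:CR45928 with 770.0 (402 and 369). Likeness here covers the pooled value of 1 assay only.

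**Figure D2:**
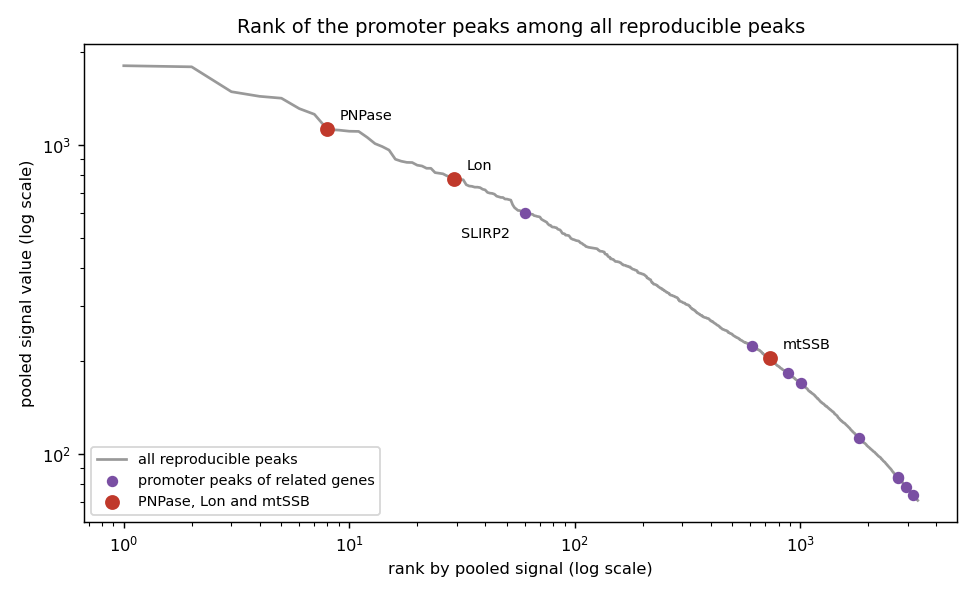
Pooled signal value (log scale) against rank (log scale) for the 3314 reproducible peaks (grey line), with the sites of PNPase, Lon and mtSSB in red and promoter peaks of related mitochondrial genes in purple. PNPase and Lon lie at ranks 8 and 29, SLIRP2 at 60 and mtSSB at 731.

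The windows around the 3 summits differed in the letters they share with other CG30431-GFP sites. Within 100 bp of the summit, CACTG on either strand lay at 1 of the 3 sites, that of Lon, and in 51% of all 3314 summit windows. Of the 19253 promoters described below, which are longer than these windows, 46.4% held CACTG. Lon held it at 45 and at 78 bp from the summit on the side of the gene, 41 and 8 bp before the start. The first of these is part of CCACTGTGC, so that it counts for both CACTGTGC and the opposite strand of CACAGTGG, which overlap in 7 letters. CACTGTGC lay in 5.82% of all summit windows and in 1.68% of 19253 promoters of protein-coding genes (250 bp before to 50 bp after the start). CACAGTGG lay in 5.79% and 1.48% of these. Of the 193 reproducible peaks with CACTGTGC within 100 bp, the peak at Lon had the highest pooled signal. Lon was picked for its strong peak, so no link between these letters and signal is read from this place.

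PNPase, the stronger site, had no CACTG within 150 bp of its summit. It was the sixth strongest of the 1623 reproducible peaks without CACTG within 100 bp, and 28 of the 50 strongest reproducible peaks had CACTG. PNPase was also picked for its strong peak, so its high rank here follows from that choice. The Ets core CCGGAA lay 60 bp from the PNPase summit, 15 bp before the start at 31404568, and it occurred in 4.22% of all summit windows and in 6.85% of the 19253 promoters. At mtSSB, CACAGTGG began at -146 bp from the summit, on the side away from the gene, and no CACTG lay within 100 bp. The site windows had a GC content of 37.3% at PNPase, 33.3% at Lon and 41.3% at mtSSB, where the middle of all summit windows (quartiles) ran from 31.8% to 39.3%.

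The start of mtSSB carries another set of letters, apart from the site. CGATA, the core of the insulator protein BEAF-32 that also forms part of the DNA replication-related element, occurred 6 times in the promoter of mtSSB on either strand, all between 73 and 10 bp before the start. As many matches were found in 134 of the 19253 promoters (0.696%), and at least 1 in 45.7%. The share with as many matches was computed only for CGATA at mtSSB, out of 13 motifs and 8 genes. Counted by gene over any start, CGATA also lay in promoters of PNPase, TFAM, mtTFB2 and bsf, so 5 of the 8 genes held it. The 80 bp before the start are shown (chr3R:16205251-16205330, minus strand) with each CGATA or its reverse complement in capitals. The pooled CG30431-GFP interval begins upstream of this stretch and does not overlap it.
mtSSB start: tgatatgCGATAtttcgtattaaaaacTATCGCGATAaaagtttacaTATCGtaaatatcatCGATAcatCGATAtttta

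Within 2 kb, the remaining 5 genes had entries only below the reproducible set, a part of the pooled list that holds background by design. Within 500 bp of a start, any pooled entry lay at 4 of the 8 genes, against 36.0% of all protein-coding genes. The fourth was TFAM (FBgn0038805, chr3R:20575245-20577010), with a signal of 22.9 at 464 bp upstream, rank 28353 of 30000. Neither replicate had an entry over that summit. A stronger pooled entry of 37.3 lay 357 bp past the 3' end of TFAM, with 28.2 in replicate 1 and none in replicate 2. The nearest reproducible summit was 2942 bp upstream of TFAM, at EloB.

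At mtTFB1 (FBgn0261381, chr3L:11708979-11710570) the pooled entry lay 530 bp upstream, just outside the promoter window. Its signal was 31.0, with 14.7 in replicate 1 and 15.7 in replicate 2. The annotation gives mtTFB1 the same span and start as Ccdc56, a cytochrome c oxidase assembly gene, so no site could be assigned to either of them alone. The nearest reproducible summit was 12324 bp away, at Dph1. At mtTFB2 (FBgn0037778, chr3R:10045574-10047260) the 2 pooled entries lay 781 and 989 bp past the 3' end, with signals of 47.3 and 50.1. By the summit, the former was matched in replicate 2 (20.6) and the latter in replicate 1 (33.6). The 2 pooled intervals overlap, and so do the 2 replicate intervals, so these entries are not separate stretches. Among the 13 weaker pooled entries in or within 2 kb of the 8 genes, the 2 at mtTFB2 had the highest values. The weakest site, that of mtSSB, had 204. The end of the reproducible set lies between these values by definition. The whole pooled list has no gap there, with 70.79 on one side and 70.78 on the other. The nearest reproducible summit was 2390 bp upstream of mtTFB2, at CG3909.

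PolrMT (FBgn0261938, chr2L:1103254-1108373) had an entry at its start in replicate 2 only, with a signal of 22.6 at 44 bp upstream and rank 5713. The pooled list and replicate 1 had none within 500 bp. Its strongest pooled entry, 45.9, lay within the gene 2883 bp past the start, with 26.5 in replicate 1 and 14.5 in replicate 2. Of the other pooled entries, 27.1 lay at -1000 bp and was matched in replicate 1 (25.4), and 23.8 lay in the gene and was matched in replicate 2 (16.6). For bsf (FBgn0284256, chr2L:18449517-18454587) the single pooled entry lay 1414 bp upstream with a signal of 33.2, and with 17.7 and 16.6 in the replicates. Each replicate had a stronger entry with no pooled match. These were 26.2 in replicate 1 at 1145 bp upstream and 17.4 in replicate 2 within the gene. Reproducible summits were 11138 bp from the start of PolrMT, at Pino, and 11260 bp from that of bsf, at RpS26.

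Including the 4 around Lon, the 8 genes had 13 weaker pooled entries, from 22.9 to 50.1 with a median of 31.0. Both replicates had an entry over 3 of these summits (23.1%), 1 replicate over 9 (69.2%) and neither over 1 (7.69%). Over all 26686 weaker pooled entries these shares were 29.8%, 59.5% and 10.7%, and the median signal was 28.6. The weak entries at these genes thus had values and replicate shares near those of the weak list as a whole. PNPase and mtSSB had no weaker pooled entry in the gene or within 2 kb.

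**Figure D3:**
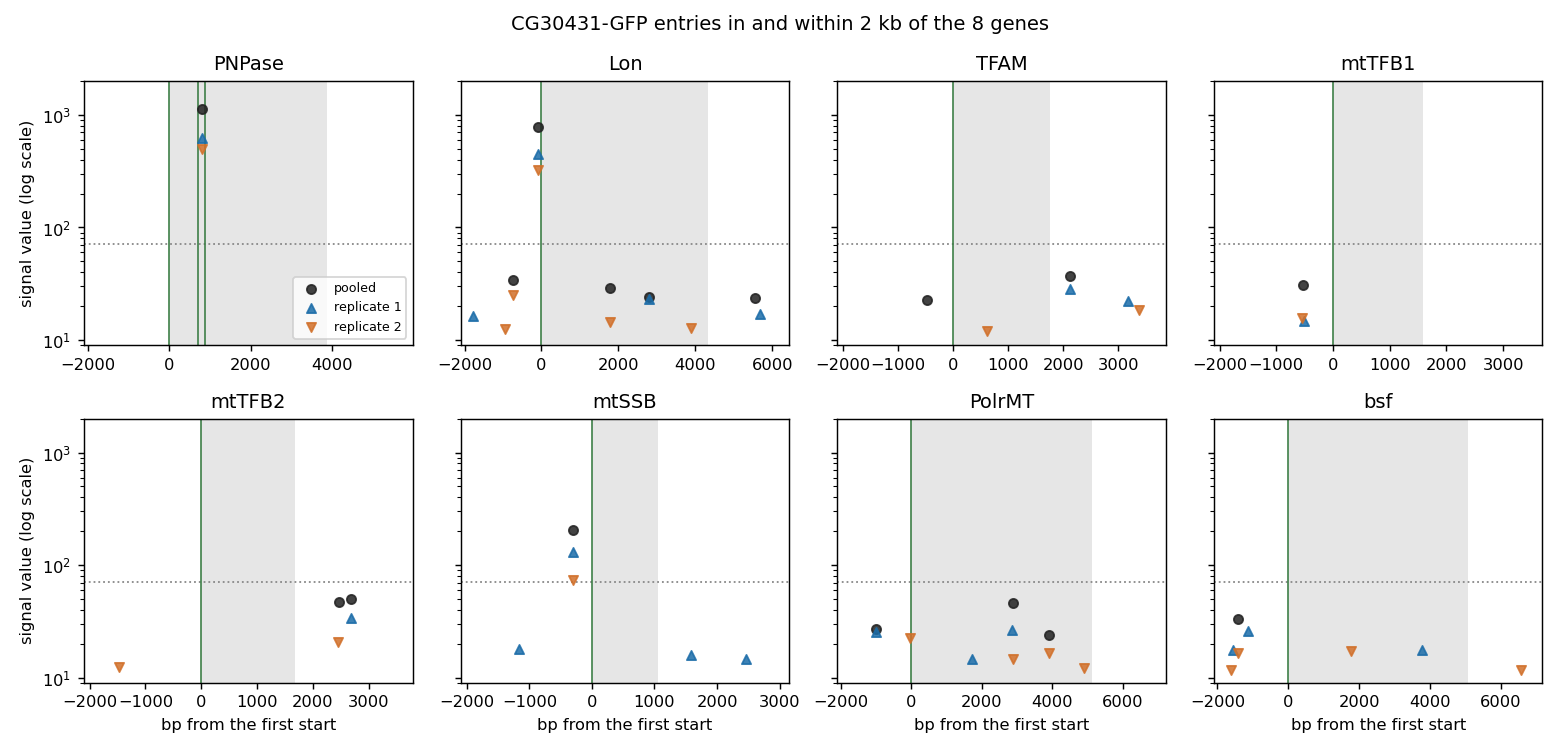
Signal value (log scale) of every entry in and within 2 kb of the 8 genes, by distance in bp from the most upstream start, for the pooled list (circles) and replicates 1 (upward triangles) and 2 (downward triangles). Grey shading is the gene, green lines are starts and the dotted line is the lowest pooled signal of the reproducible set (70.79). Sites above it lie at PNPase, Lon and mtSSB, and the pooled entries of the other 5 genes stay between 22.9 and 50.1.

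Related genes of the same processes were taken from 5 lists, of which 35 of 37 names matched the annotation. The lists were drawn up with earlier results known. A reproducible promoter summit lay at 9 of these 35 genes (25.7%), where all protein-coding genes had 12.8%, and any pooled entry at 16 (45.7%), where all had 36.0%. With the gene body and 2 kb on each side included, 14 of the 35 had a reproducible summit, where 25.4% of all protein-coding genes had one. Among genes of mitochondrial RNA processing and turnover it lay at 3 of 8, namely SLIRP2, SLIRP1 and RNaseZ. SLIRP2 had a pooled signal of 603 (333 in replicate 1 and 265 in replicate 2) at 111 bp upstream and rank 60. SLIRP1 had 169 (87.5 and 85.4) at -113 bp. In mammals SLIRP is the partner of LRPPRC, and both fly SLIRP genes carried a site where bsf did not. The listed name LRPPRC2 matched no gene and was not assessed, so this contrast covers bsf only. RNaseZ, which cuts the 3' ends of tRNA precursors, had 73.9 (33.6 and 42.6), near the lower end of the reproducible set. Suv3, the helicase that works with PNPase in RNA decay, had no pooled entry at its start.

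Among proteases and matrix chaperones the count was 3 of 9. Hsc70-5, the mitochondrial Hsp70, had 223 pooled (89.4 in replicate 1 and 128 in replicate 2) at 32 bp past the start. The rhomboid protease gene rho-7 had 112 (67.1 and 47.6), with its summit nearer to the start of CG8298, and the inner-membrane protease gene YME1L had 84.0 (46.1 and 32.6). ClpX and ClpP, which form another ATP-dependent protease of the matrix, had no pooled entry at a start.

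Lists of replication, transcription and regulation held 1 promoter site each. Of 9 genes of mitochondrial DNA replication and the nucleoid, EndoG, a mitochondrial nuclease, had a site with 83.8 pooled and 59.3 in replicate 1, and with no entry at the start in replicate 2. The DNA polymerase gamma gene PolG1 and mtDNA-helicase had no pooled entry there, and PolG2 had an entry of 37.6, below the reproducible set. Of 3 transcription genes, mTerf5 had 78.3 (44.5 and 32.7). Of 6 nuclear regulators, ERR, an estrogen-related receptor, had 183 (102 and 82.0), with its summit at -221 bp from the start of ERR and 35 bp past that of Atg18a. No pooled entry lay at a start of ewg, Ets97D or srl, the fly counterparts of mammalian NRF-1, the alpha subunit of NRF-2 and PGC-1.

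**Figure D4:**
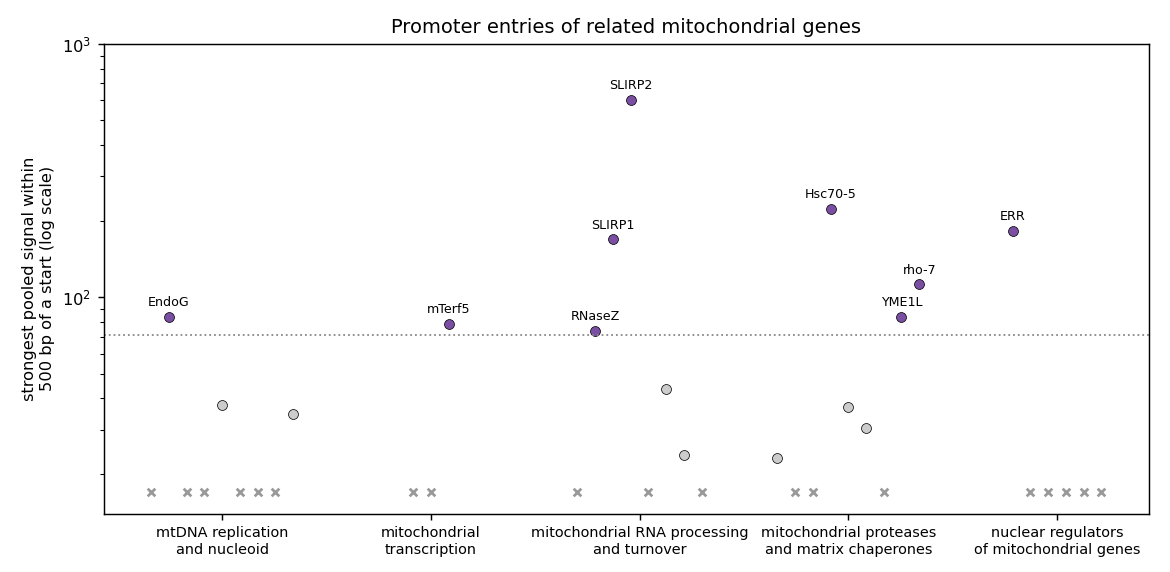
Strongest pooled signal value (log scale) within 500 bp of a start for the 35 related genes in 5 lists. Purple points with names are reproducible, grey points are weaker entries, crosses at the bottom are genes with no pooled entry and the dotted line is the lowest reproducible signal (70.79). SLIRP2 stands highest at 603, and 4 of the 9 named genes lie under 100.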

How the data were processed

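ChIP-seq peak lists of 2 replicates in 1 group were used, with each sample grouped by its source label. Per the deposited readme files, a replicate's alignment was set against a control alignment to give its own list. Both alignments together gave a pooled list, and comparing the lists by irreproducible discovery rate gave the reproducible set. The aligner, peak caller and threshold were not given in the sources used here. The deposited signal value of a peak has no stated scale, and the deposited −log10 q-value was only described. Both are the authors' own values and describe peaks within a list. No read counts were used, so depth is unknown and counting intervals are left out. Lists on dm3 were not used here.

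Genes came from Ensembl release 115 (BDGP6.54, dm6 coordinates) without transposable elements, and sequences from the RefSeq assembly of the same release 6 genome. A gene had a promoter site where a summit lay within 500 bp of any start. A replicate's value is that of its strongest entry holding the pooled summit. For related genes it is that of the strongest entry at the start. Motifs were searched on both strands, overlaps included, within 100 bp of summits.

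The members, the lists and the motifs were chosen with earlier results of these data known, so nothing was tested and all values are descriptions. Named genes are the members, genes sharing their promoters, related genes with a reproducible promoter site, and the promoter peaks directly above and below PNPase and Lon. Related genes without a site were named after their values were seen. Assignment rules were tested on simulated data. Python 3.11.15, numpy 2.4.6, pandas 2.3.3 and matplotlib 3.10.9 were used.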

Additional observations from a re-analysis of the deposited data

How the results depend on the processing

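The count of 3 genes with a promoter site was the same with a window of 1000 bp, with any overlap of the interval, in the strongest 1657 reproducible peaks, with starts of coding transcripts only, and in the 3314 strongest entries of either replicate alone. With a window of 200 bp it was 2, without mtSSB. With a flank of 5 kb the count of genes with any site rose from 3 to 5, as the wider flank takes in the summits upstream of TFAM and mtTFB2. Any entry at a start was found for 4 genes in the pooled and the replicate 2 lists, and for 3 in replicate 1 or in the strongest 10000 pooled entries. The fourth gene was TFAM in the pooled list and PolrMT in replicate 2. Among related genes the count of 9 fell to 4 in the strongest 1657 peaks, since this leaves out the weaker peaks by construction, and was 8 or 9 otherwise. CACTG lay at 2 of the 3 sites within 150 bp, as the match at mtSSB then counts, and at 1 under the other choices. Leaving out a replicate gave ranks of 8 to 11 for PNPase and 28 to 35 for Lon. No read depth is known, so a weak or missing entry, as at PolrMT in replicate 1, does not show that a site is absent.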

Other observations

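Counted from 250 bp before to 50 bp after the start, mtTFB2 had the DNA replication-related element TATCGATA 37 bp before its start, which 7.98% of all 19253 promoters and 2.08% of summit windows hold. CACTG occurred in the promoters of 4 of the 8 genes. Besides Lon these were PolrMT, bsf and PNPase, the last only in its promoter at 31404740. It occurred in 46.4% of all promoters, a share counted by promoter, while the 4 are counted by gene over any start. CACTG therefore lay in promoters with and without a site. Of the 8 genes, 5 had the start of a divergent gene as their nearest other start, at 256 bp for Lon, 167 bp for PolrMT, 62 bp for bsf, 43 bp for TFAM and 32 bp for mtTFB2. Among these, Lon had a site. The share of all protein-coding genes with such a divergent neighbour is not given here, so nothing is read from the count of 5.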
